A study of Mus musculus with 22 samples.

Results

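The 7 genes described here, Pcp2, Calb1, Car8, Itpr1, Rora, Ppp1r17 and Slc1a6, are transcripts by which Purkinje cells of the cerebellum are usually recognised. They were named by symbol and matched to Ensembl mouse gene identifiers on GRCm38, and all 7 were found among the 34585 rows of each of the 3 count tables. The rule that picks them uses no measured value, but the members were chosen with earlier results of these data known. The rule also sets cerebellum Tol 2 beside the other cerebella from the start. RNA was sequenced from frozen thymus, cerebrum and cerebellum of C57BL/6 mice of 2 genotypes. Tol mice were heterozygous for a transgene that encodes a long chimeric protein assembled from shuffled fragments of reporter proteins, driven by the ubiquitous CAG promoter and inserted 3′ of Col1a1 by recombinase-mediated cassette exchange in embryonic stem cells, and WT mice were their littermates without it. The comparison of the genotypes asked whether the transgene changed transcription. Each genotype had 4 thymi and 4 cerebra, and there were 2 cerebella of Tol mice beside 4 of WT mice, which made 22 libraries, and other cerebellum libraries are not analysed here. The labels give neither age nor sex.

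Purkinje cells are the large GABAergic neurons whose dendrites fill the molecular layer of the cerebellar cortex and whose axons are its only output. Glutamate from parallel fibres and climbing fibres opens calcium entry at their dendrites and, through Gq proteins and phospholipase C, makes inositol trisphosphate, which releases calcium from the endoplasmic reticulum. Itpr1 encodes the inositol trisphosphate receptor that releases this calcium, Car8 a carbonic anhydrase-related protein without catalytic activity that binds the receptor and lowers its affinity for its ligand, and Calb1 the cytosolic calcium buffer calbindin. Slc1a6 encodes a glutamate transporter of Purkinje cell spines, Pcp2 a modulator of inhibitory G proteins, Ppp1r17 an inhibitor of protein phosphatases that is a substrate of cGMP-dependent protein kinase, and Rora an orphan nuclear receptor that Purkinje cells need to mature.

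Rora binds DNA at sites that include the letters AGGTCA. The 250 bases before the annotated starts of the members were searched for these letters on both strands. Promoter windows from RefSeq on GRCm38.p6 were matched for 3 of the 7 genes, Pcp2, Rora and Slc1a6. Of 32851 promoter windows of that length, 14.02% held AGGTCA. A longer form of the site, which ends in these letters, was searched too and was in 0.177% of them. None of the 6 windows of these 3 genes held the longer form. Pcp2 is shown because its most upstream window held 1 copy of AGGTCA, on the strand of the gene, with its first base 12 bases before the start. The other windows of Pcp2 held 1 or 0 copies and are not printed. Rora and Slc1a6 had 1 window of 250 bases each. These windows held no AGGTCA and are shown whole for comparison. For Pcp2, 78 bases of the window lie in an untranslated region of Pet100 on the other strand, so only the 172 bases outside it, at chr8:3625607-3625778 (minus strand), and the 30 bases next to the start, at chr8:3625548-3625577, are printed. The Rora window is chr9:68653536-68653785 and the Slc1a6 window chr10:78780246-78780495, both on the plus strand. Capitals mark AGGTCA, and a match is a description of the letters only.
Pcp2 upstream: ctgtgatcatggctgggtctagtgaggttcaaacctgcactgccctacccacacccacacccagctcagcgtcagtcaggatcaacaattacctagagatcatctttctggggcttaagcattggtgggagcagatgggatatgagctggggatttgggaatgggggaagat
Pcp2 at the start: cttttaaaaggccttctcAGGTCAgagacc
Rora: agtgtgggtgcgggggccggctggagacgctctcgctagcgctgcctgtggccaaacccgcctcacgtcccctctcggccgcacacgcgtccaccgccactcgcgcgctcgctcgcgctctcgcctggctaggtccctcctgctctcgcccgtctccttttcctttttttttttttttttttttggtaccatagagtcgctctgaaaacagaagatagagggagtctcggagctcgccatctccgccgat
Slc1a6: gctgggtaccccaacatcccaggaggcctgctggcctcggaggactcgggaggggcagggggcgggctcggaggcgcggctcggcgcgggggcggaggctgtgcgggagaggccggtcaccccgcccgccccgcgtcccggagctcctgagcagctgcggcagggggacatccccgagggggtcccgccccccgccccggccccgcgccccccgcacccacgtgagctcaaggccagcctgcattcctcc

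In the GENCODE annotation of GRCm38, Pcp2 (ENSMUSG00000004630) lies at chr8:3623371-3625545 on the minus strand and Car8 (ENSMUSG00000041261) at chr4:8143362-8239041 on the same strand. Calb1 (ENSMUSG00000028222) lies at chr4:15881264-15908064, Itpr1 (ENSMUSG00000030102) at chr6:108213096-108551109 and Ppp1r17 (ENSMUSG00000002930) at chr6:56017497-56032689, all on the plus strand. Rora (ENSMUSG00000032238) lies at chr9:68653786-69388246 and Slc1a6 (ENSMUSG00000005357) at chr10:78780496-78814765, also on the plus strand. Exons of Pcp2 share 941 bases with exons of Pet100 on the other strand, exons of Itpr1 share 108 bases with Gm44040 and 181 bases with Gm44101, and those of Rora 82 bases with Gm15511. Whether the counting used the strand is not given in the sources used here, so reads from these stretches may be split between partners.

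The deposited values are estimated counts per gene, and libraries held between 14543698 and 34776973 of them. The Tol transcript had 448 to 4628 counts in the 10 Tol libraries and 0 to 2 in the 12 WT libraries, so each genotype label matched its library. Levels are given as CPM, the counts of a gene relative to its library's total, scaled with TMM factors over all 22 libraries. Thymocyte genes summed to between 6370 and 9157 CPM in the thymi and to at most 44.9 CPM in the brain libraries, and forebrain genes to between 1481 and 2508 CPM in the cerebra. Among the cerebella, 2 libraries stood apart. Cerebellum Tol 2 held 209 CPM of 9 granule cell genes against 2910 to 6993 CPM in the other 5 cerebella, with 114 CPM of 5 genes of the midbrain tectum against 5.52 to 26.0 CPM. Cerebellum WT 2 held the lowest granule cell sum of those 5, with 17278 CPM of 6 oligodendrocyte genes against 4697 to 9438 CPM in the other 5. Some of the tests that rest on these libraries are also given without them. Means of the WT cerebella, and levels given as a share of these means, include WT 2.

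All 7 genes were higher in WT cerebellum than in WT cerebrum and than in WT thymus. Car8 was the most abundant of them per kilobase of exon in cerebellum, and Ppp1r17 and Pcp2 were the most restricted to cerebellum. The levels in all libraries are shown in the plot of the 7 genes by library.

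**Figure D1:**
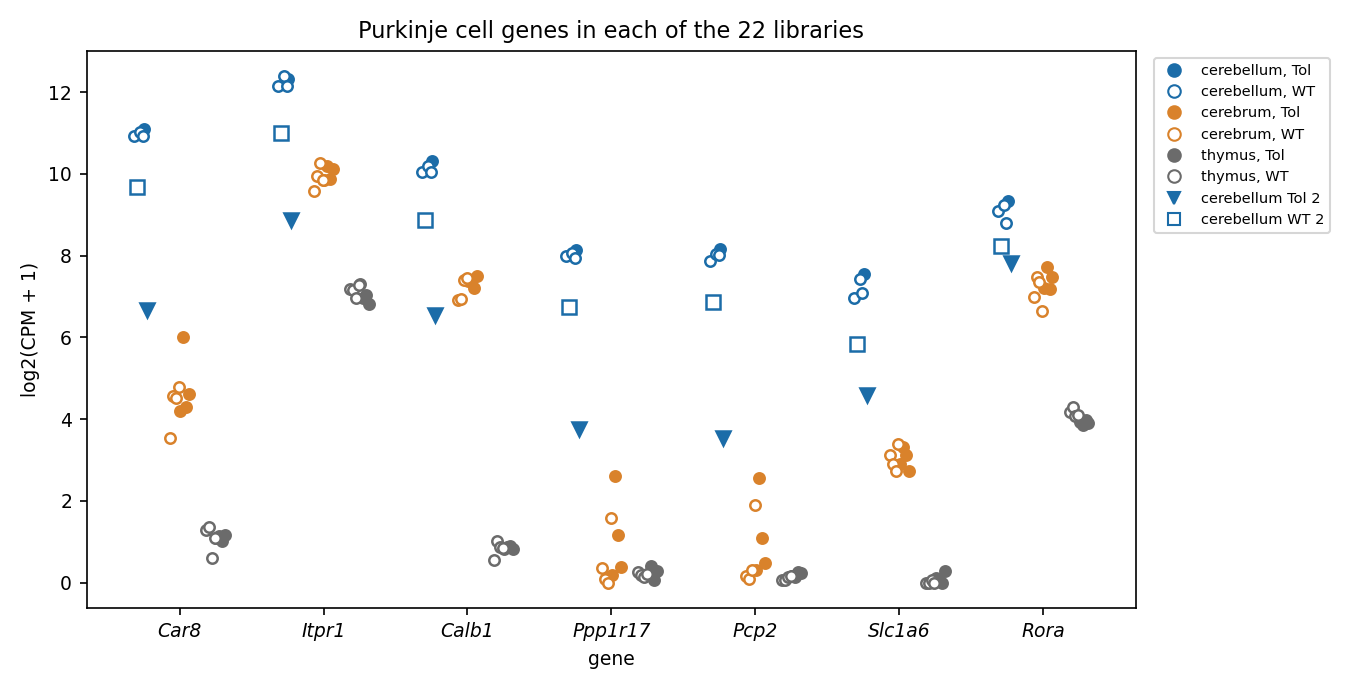
Level of the 7 Purkinje cell genes in each of the 22 libraries, as log2(CPM + 1) on the vertical axis, with genes along the horizontal axis. Filled circles are Tol and open circles WT libraries, colours are organs, and the triangle and the square mark cerebellum Tol 2 and cerebellum WT 2, which lie below the other 4 cerebella for all 7 genes.

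Per kilobase of exon, the order in WT cerebellum was Car8 with 441 ± 154 CPM per kilobase (SD, n = 4), Itpr1 with 225 ± 78.9, Calb1 with 195 ± 65.9, Ppp1r17 with 123 ± 42.7, Pcp2 with 119 ± 37.9, Slc1a6 with 56.2 ± 22.04 and Rora with 36.3 ± 10.2. The spread between these 4 mice is wider than the step between Itpr1 and Calb1, between Ppp1r17 and Pcp2 and between Slc1a6 and Rora. It includes WT 2, the lowest of the 4 for every member. Within each cerebellum, however, Car8 stood above Itpr1 and Itpr1 above Calb1 in all 6 libraries. Slc1a6 stood above Rora in every cerebellum but Tol 2. Ppp1r17 and Pcp2 changed places, with Pcp2 the higher in WT 2 and WT 4. In WT cerebrum, Itpr1 led with 53.1 ± 10.6 CPM per kilobase, followed by Calb1 with 29.9 ± 5.94 and Rora with 10.8 ± 2.77.

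The difference between WT cerebellum and WT cerebrum was tested with edgeR's quasi-likelihood test over all 17413 genes, in a fit of the 3 organs, with Benjamini-Hochberg adjustment over all genes. All 7 genes rose in cerebellum, where 26.4% of all genes did. The log2 fold change was 8.53 (SE 0.60, edgeR adjusted p = 4.32e-07) for the phosphatase inhibitor Ppp1r17 and 8.11 (SE 0.61, edgeR adjusted p = 6.59e-07) for the G protein modulator Pcp2. These 2 genes had so few counts in WT cerebrum, 0 to 33 for Ppp1r17 and 1 to 45 for Pcp2, that the size of the fold rests on cerebrum WT 4, which held the most of both. Without it, the remaining WT cerebra held at most 5 counts of either gene, several of them under 3, and the fitted log2 fold changes were 10.77 and 10.55, so the folds of these 2 genes are not firm. Car8 followed with 6.37 (SE 0.40, edgeR adjusted p = 1.91e-07) and the glutamate transporter Slc1a6 with 4.04 (SE 0.31, edgeR adjusted p = 7.41e-07). The log2 fold change was smaller for Calb1, with 2.69 (SE 0.26, edgeR adjusted p = 4.70e-06), for Itpr1, with 2.08 (SE 0.25, edgeR adjusted p = 2.79e-05), and for Rora, with 1.74 (SE 0.22, edgeR adjusted p = 3.49e-05). These 3 genes are also transcribed by neurons of the cerebrum, and the mean of the WT cerebra was 15.4% of that of the WT cerebella for Calb1, 23.6% for Itpr1 and 29.8% for Rora, against 6.02% for Slc1a6, 1.2% for Car8, 0.358% for Pcp2 and 0.266% for Ppp1r17. Without cerebellum WT 2, all 7 still rose, with log2 fold changes from 1.91 for Rora to 8.76 for Ppp1r17.

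Against WT thymus, all 7 genes rose in cerebellum as well, where 41.7% of all genes did and 41.8% fell. Itpr1 and Rora were the members with most transcript in thymus, and their log2 fold changes were 4.84 (SE 0.29, edgeR adjusted p = 4.17e-09) and 4.77 (SE 0.25, edgeR adjusted p = 1.24e-09). For Calb1 the log2 fold change was 10.20 (SE 0.39, edgeR adjusted p = 5.94e-11) and for Car8 10.47 (SE 0.49, edgeR adjusted p = 4.48e-10), over 10 to 27 and 10 to 38 counts in the WT thymi. Pcp2 with 1 to 4 counts, Ppp1r17 with 2 to 5 and Slc1a6 with 0 or 1 were near or under 3 counts per library, below which a level was taken as not detectable, so no fold is given for them (edgeR adjusted p = 1.74e-08, 1.17e-08 and 4.70e-10).

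Other genes of the Purkinje cell were read from lists written with earlier results of these data known. Of 17 genes of the calcium and glutamate signalling pathway around Itpr1, 12 rose in WT cerebellum against WT cerebrum, 3 fell, as 24.6% of all genes did, and 2 did not pass the test, with a median log2 fold change of 2.28 against 0.03 over all genes. Homer3, a scaffold of the postsynaptic density, had 5.35 (edgeR adjusted p = 7.03e-08). Among those that fell, Itpka, a kinase of inositol trisphosphate, fell by 1.76 on the log2 scale and Gnaq, the Gq subunit, by 0.33. Of 12 further Purkinje cell genes, 10 rose and none fell, led by the transcription factors Lhx1 (8.74, edgeR adjusted p = 4.69e-08), Skor2 (8.33, edgeR adjusted p = 6.11e-07) and Lhx5 (5.60, edgeR adjusted p = 2.42e-07). Foxp2 and Pcp4 did not pass, at -0.13 and 0.57.

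Of 14 tested relatives of the members from the same gene families, 4 rose in cerebellum, 6 fell and 4 did not pass, with a median log2 fold change of -0.47. The share that rose was near the 26.4% of all genes, so the count of those says nothing particular about the relatives. Of all genes, 24.6% fell, and whether the relatives fell more often was not tested. Calb2, which encodes calretinin and marks granule cells rather than Purkinje cells, rose by 5.20 on the log2 scale (edgeR adjusted p = 6.65e-07), while the nuclear receptor Rorb fell by 2.03 (edgeR adjusted p = 3.97e-05). Of the other receptors for inositol trisphosphate, Itpr3 rose by 1.93 (edgeR adjusted p = 4.90e-06) and Itpr2 stood at -0.12 (edgeR adjusted p = 0.400). Of the transporters related to Slc1a6, the astrocytic Slc1a2 fell by 1.81 (edgeR adjusted p = 8.83e-05) and Slc1a3, which Bergmann glia carry, rose by 0.88 (edgeR adjusted p = 0.00174).

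Across the 6 cerebella the 7 genes were far from even. Cerebellum Tol 2 had the lowest level and cerebellum WT 2 the second lowest of all 7, while Tol 1, WT 1, WT 3 and WT 4 lay close together. As a share of the mean of the other 5 cerebella, Tol 2 held from 4.58% for Pcp2 to 44.6% for Rora, with a median of 9.10%. In bulk tissue, fewer Purkinje cells and less RNA of these genes per cell cannot be told apart. Tol 2 and WT 2 are single libraries, so their distance from the others is given without a test.

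Itpr1, the release channel, stood at 5151 CPM in cerebellum Tol 1 and 465 CPM in Tol 2, and at 4552, 2043, 5380 and 4543 CPM in WT 1 to WT 4. Its inhibitor Car8 stood at 2208 and 101 CPM in the same Tol libraries and at 1948, 815, 2085 and 1951 CPM in the WT libraries. Calb1, the buffer, stood at 1271 and 91.8 CPM in the Tol libraries and at 1060, 470.6, 1178 and 1062 CPM in the WT libraries. In all 3 calcium genes, Tol 1 was among the high libraries, Tol 2 lay apart below everything else, and WT 2 fell between it and the others.

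Pcp2 stood at 285 CPM in Tol 1 and 10.6 CPM in Tol 2, and at 231, 115, 261 and 260 CPM in WT 1 to WT 4. Ppp1r17 stood at 279 and 12.4 CPM in the Tol libraries and at 252, 105, 267 and 244 CPM in the WT libraries. These 2 genes, the members with the least transcript outside the cerebellum, had the lowest shares in Tol 2, 4.58% and 5.41% of the mean of the other 5. The lowest of the other 5 cerebella was still 10.9 times Tol 2 for Pcp2 and 8.48 times for Ppp1r17.

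The glutamate transporter Slc1a6 stood at 187 CPM in Tol 1 and 23.2 CPM in Tol 2, and at 123, 56.6, 170 and 135 CPM in WT 1 to WT 4. Rora stood at 641 and 226 CPM in the Tol libraries and at 542, 300.1, 608 and 445 CPM in the WT libraries. Rora was thus the member least reduced in Tol 2, and the gap to the next library, WT 2, was 1.33-fold. Set beside the 4 WT cerebra, cerebellum Tol 2 held less Itpr1 than their mean of 973 ± 194 CPM (SD, n = 4) and less Calb1 than their 145 ± 28.8 CPM, but more Rora than their 141 ± 36.2 CPM. Car8, Pcp2, Ppp1r17 and Slc1a6 were also above every WT cerebrum in Tol 2.

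**Figure D2:**
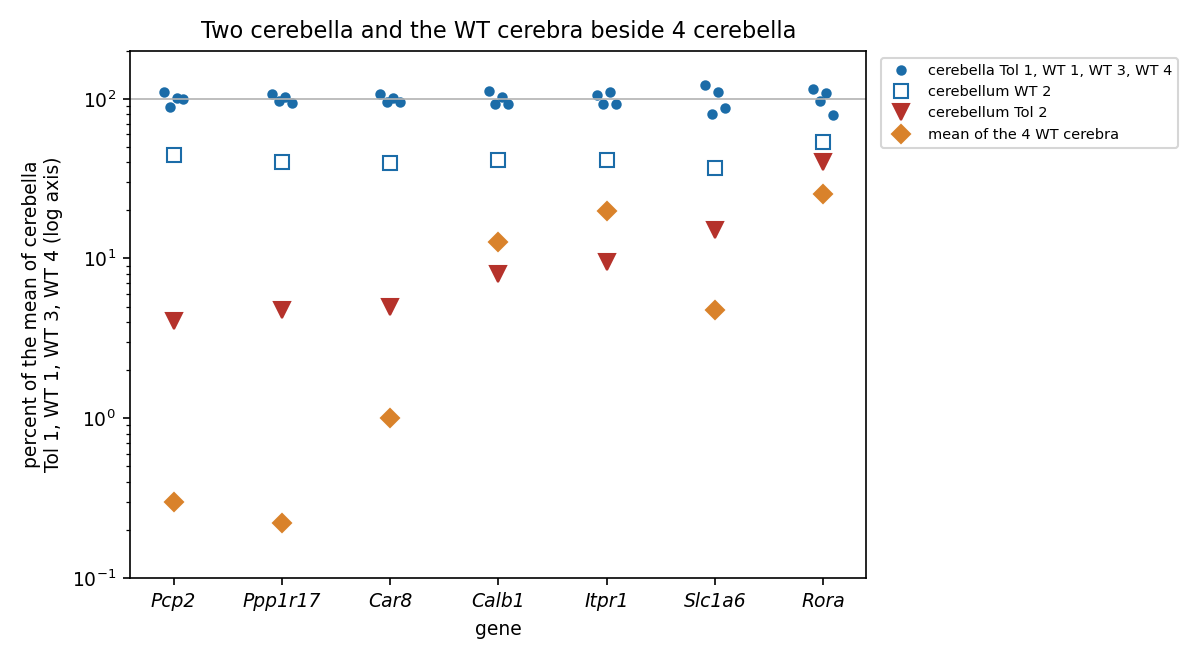
CPM of each gene as a percent of the mean of cerebella Tol 1, WT 1, WT 3 and WT 4, on a logarithmic axis, with genes along the horizontal axis. Circles are these 4 cerebella, squares cerebellum WT 2, triangles cerebellum Tol 2 and diamonds the mean of the 4 WT cerebra. WT 2 sits between 36.8% for Slc1a6 and 53.7% for Rora, and Tol 2 lies under it for every gene.

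Cerebellum WT 2 differed from Tol 2 in how evenly the genes were lowered. As a share of the mean of Tol 1, WT 1, WT 3 and WT 4, it held between 36.8% for Slc1a6 and 53.7% for Rora, with a median of 41.2%. Among those 4 libraries the highest exceeded the lowest by 1.13-fold for Car8 to 1.52-fold for Slc1a6. The ratios between members given here lay farther from those of the other cerebella in Tol 2 than in WT 2. The ratio of Car8 to Itpr1 was 0.218 in Tol 2 and between 0.387 and 0.429 in the other 5 cerebella, WT 2 included. The ratio of Rora to Itpr1 was 0.487 in Tol 2, 0.147 in WT 2 and between 0.0981 and 0.124 in Tol 1, WT 1, WT 3 and WT 4. WT 2 thus lay above those libraries, on the same side as Tol 2. That of Ppp1r17 to Pcp2 stayed between 0.916 in WT 2 and 1.18 in Tol 2 in all 6. Per kilobase, Rora and Slc1a6 stood above Ppp1r17 and Pcp2 in Tol 2, with 17.3 and 10.8 CPM per kilobase against 7.07 and 5.78, the reverse of their order in the other 5.

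Over 14753 genes with a mean of at least 1 CPM in the cerebella, Tol 2 lay under 50% of the lowest other cerebellum in 3.31%, and in 6 of the 7 Purkinje cell genes, all but Rora. WT 2 lay under Tol 1, WT 1, WT 3 and WT 4 in 36.2% of all genes and in 7 of 7 members. Tol 2 was the lowest and WT 2 the second lowest in 22.2% of all genes and in 7 of 7 members. As the members were chosen with earlier results of these data known, these shares are a description and not a test. On the scale of log2(CPM + 1), the median difference of Tol 2 from the mean of the other 5 was -3.37 over the members and -0.03 over all genes, and that of WT 2 from the mean of the 4 was -1.27 and -0.02. The share of all genes in which Tol 2 was the lowest or the highest cerebellum is not given. Nor is the share in which WT 2 lay above Tol 1, WT 1, WT 3 and WT 4. Counts of list genes by these measures therefore have no background and are descriptions only.

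The other genes of the pathway lay low in the same libraries. Of the 17 calcium and glutamate signalling genes, Tol 2 was the lowest cerebellum in 16. Its median difference was -2.33 on the log2 scale, against -0.03 over all genes. WT 2 lay under the 4 others in 17, where it did in 36.2% of all genes, with a median of -1.06. Homer3 stood at 19.4 CPM in Tol 2 against 140 to 341 CPM in the other 5 cerebella. The exception was Gnaq, at 226 CPM in Tol 2 against 210 to 291 CPM. Of the 12 further Purkinje cell genes, Tol 2 was the lowest in 10 and the highest in 1, with a median difference of -0.94, and WT 2 lay under the 4 others in 10, with a median of -0.67. Skor2 stood at 0.564 CPM in Tol 2 against 5.58 to 14.3 CPM, while Foxp2, a transcription factor of many brain regions, stood at 95.3 CPM against 13.1 to 49.8 CPM.

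The family relatives of the members went both ways in Tol 2, which was the lowest cerebellum for 6 and the highest for 7 of the 14 with a mean of at least 1 CPM. Rorb, a nuclear receptor of the same family as Rora, stood at 54.3 CPM in Tol 2 against 11.1 to 21.8 CPM in the other 5 cerebella, so Rora was low and Rorb high in the same library. Calb2 stood at 94.6 CPM against 230.0 to 505 CPM, and Slc1a3 at 376 CPM against 812 to 1874 CPM. The astrocytic transporter Slc1a2, at 2569 CPM in Tol 2 against 1031 to 1973 CPM, was high where Slc1a6 was low.

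Genes of other cell types moved with these libraries, and their part in the levels of the Purkinje cell genes was not tested. All 9 granule cell genes were lowest in Tol 2, with a median difference of -4.64 on the log2 scale, and under the 4 others in WT 2, with a median of -1.09. Cbln3, a granule cell gene, stood at 30.9 CPM in Tol 2, 727 CPM in WT 2 and 1389 to 1993 CPM in the 4. Of the 7 Bergmann glia genes, 6 were lowest in Tol 2, with a median of -1.91, whereas for 7 genes of inhibitory neurons the median was 0.03. In WT 2, 6 of the 7 Bergmann glia genes and 6 of the 7 inhibitory neuron genes lay under the 4 others, with medians of -0.77 and -0.43. The GABA synthesis gene Gad1, which Purkinje cells share with many neurons, stood at 673 CPM in Tol 2 against 425 to 717 CPM.

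Transcripts that the cerebellum hardly holds were present in the same libraries. Of 5 midbrain tectum genes, 4 were highest in Tol 2, among them Pax7 with 28.8 CPM against at most 0.126 CPM in the other 5, and Tfap2d with 26.9 CPM against 14.01 CPM in WT 1 and at most 0.0436 CPM elsewhere. Of 7 thalamus genes measured, 5 were highest in Tol 2, with a median difference of 1.99, and of 6 forebrain genes 4, with a median of 1.88. Genes were counted from a mean of 1 CPM over all 6 cerebella, Tol 2 included. Pax7, Pou4f1, Gata3 and Lhx2 had means of at most 0.960 CPM in the other 5. They were counted only through Tol 2, so their place as highest there was fixed in advance. WT 1 came next for several of the genes highest in Tol 2. There Tcf7l2 stood at 136 CPM against 274 CPM in Tol 2 and 4.32 to 6.36 CPM elsewhere, and the Purkinje cell genes of WT 1 were not low. In WT 2 the sums of other lists were high. All 6 oligodendrocyte genes lay above the 4 others, with a median difference of 1.58. Of 12 brainstem genes, 2 reached a mean of 1 CPM, and both lay above the 4 others. The share of all genes in which WT 2 did so is not given, so both counts are descriptions only. The glycine transporter Slc6a5 stood at 205 CPM against 48.5 to 60.5 CPM. Slc6a2 stood at 7.84 CPM against at most 1.12 CPM, and reached that mean only through WT 2, so its place was fixed in advance. The 5 choroid plexus genes were high in WT 2 and higher in WT 4, with Ttr at 1199 and 4370 CPM against at most 3.13 CPM in the other 4 cerebella, and the Purkinje cell genes of WT 4 were not low. The share of counts from mitochondrial genes was 8.74% in Tol 2 and between 5.55% and 8.13% in the other cerebella.

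**Figure D3:**
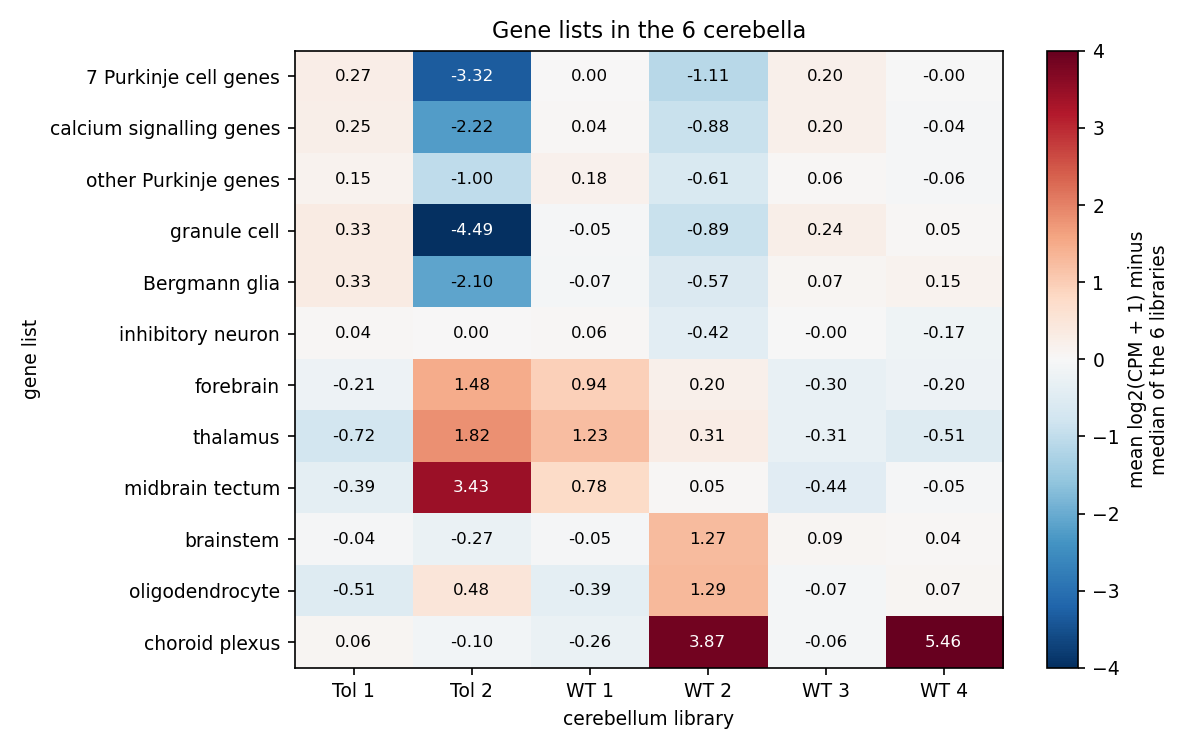
Mean log2(CPM + 1) of each gene list (rows) in each cerebellum (columns), minus the median of the 6 libraries, as colour and as number. The 7 Purkinje cell genes are at -3.32 in Tol 2 and -1.11 in WT 2, beside -4.49 and -0.89 for granule cell genes, while the midbrain tectum genes are at 3.43 in Tol 2, and shades stop at 4.

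In the comparison of Tol with WT cerebella, 2 Tol against 4 WT libraries with edgeR's quasi-likelihood test, 0 of the 7 genes and 0% of 16662 genes passed an adjusted p of 0.05, while 527 genes had an unadjusted p under it and DESeq2 called 9. Tol differed from WT by a log2 fold change between -0.57 for Ppp1r17 and -0.11 for Rora, with edgeR adjusted p from 0.958 to 0.979. The intervals were wide, for Pcp2 from -3.17 to 2.07 (log2 fold change -0.55, SE 1.07). The signs were not stable to leaving out 1 library. Without Tol 2, which leaves Tol 1 against 4 WT cerebella and assumes that it varies as they do, all 7 were positive, from 0.32 for Itpr1 to 0.62 for Slc1a6 (edgeR adjusted p = 0.979), and 0 of 17082 genes passed. Rora and Slc1a6 were also positive without WT 3, at 0.038 and 0.020 (edgeR adjusted p = 0.999). Without Tol 2 and WT 2, they lay between 0.09 for Itpr1 and 0.39 for Slc1a6. Of the 17 calcium and glutamate signalling genes 0 passed as well, with a median log2 fold change of -0.40, and of the 12 further Purkinje cell genes 0, with a median of -0.23, against 0.01 over all genes. The lists of other cell types and of family relatives held no gene that passed either.

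**Figure D4:**
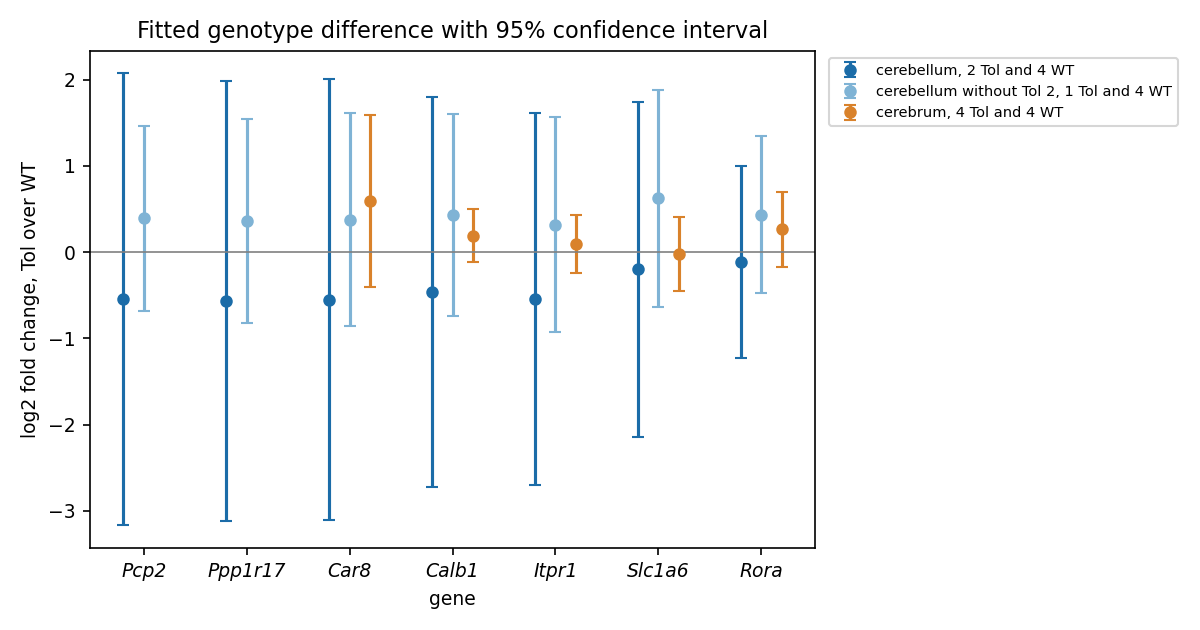
Fitted log2 fold change, Tol over WT, with its 95% confidence interval, with genes along the horizontal axis, for the 2 Tol and 4 WT cerebella, for the cerebella without Tol 2, and for the 4 Tol and 4 WT cerebra. The intervals include 0 for every gene shown, and Pcp2 and Ppp1r17 were not tested in cerebrum.

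In cerebrum, 5 of the 7 genes passed the filter on low counts, and 0 of them and 0% of 15596 genes passed the test between Tol and WT, with 1506 genes at an unadjusted p under 0.05 and 187 called by DESeq2. Itpr1 stood at 921, 1171, 940 and 1121 CPM in cerebra Tol 1 to Tol 4 and at 760, 983, 1228 and 919 CPM in WT 1 to WT 4. Its log2 fold change was 0.10 (SE 0.15, 95% interval -0.24 to 0.43, edgeR adjusted p = 0.884). Calb1 stood at 166, 168, 147 and 180.1 CPM in the Tol cerebra and at 119.8, 121, 167 and 173 CPM in the WT cerebra. The groups overlapped for both, and for Calb1 the log2 fold change was 0.19 (SE 0.14, edgeR adjusted p = 0.698).

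Rora stood at 146, 210.4, 144 and 177 CPM in cerebra Tol 1 to Tol 4 and at 125, 178, 163 and 98.6 CPM in WT 1 to WT 4, with a log2 fold change of 0.26 (SE 0.19, edgeR adjusted p = 0.711). Slc1a6 stood between 5.58 and 9.41 CPM in the 8 cerebra, with a log2 fold change of -0.02 (SE 0.19, edgeR adjusted p = 0.983). Car8 stood at 17.4, 63.5, 18.6 and 23.4 CPM in the Tol cerebra and at 10.6, 22.6, 21.9 and 26.6 CPM in the WT cerebra. Tol 2 alone was high, and the log2 fold change of Car8, 0.59 (SE 0.44, edgeR adjusted p = 0.717), was -0.04 without it.

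Pcp2 and Ppp1r17, which failed the filter, were uneven between cerebra. In cerebra Tol 1 to Tol 4, Pcp2 had 5, 91, 23 and 5 counts and Ppp1r17 had 3, 95, 25 and 4. In WT 1 to WT 4, Pcp2 had 2, 1, 4 and 45 counts and Ppp1r17 had 5, 1, 0 and 33. Both genes were thus highest in the same 3 libraries, Tol 2, WT 4 and Tol 3, which belong to both genotypes. The ratio of Ppp1r17 to Pcp2 in these libraries was 1.04 in Tol 2, 0.733 in WT 4 and 1.09 in Tol 3, beside 0.916 to 1.18 in the cerebella, so that WT 4 lay below that range. The other 5 cerebra held at most 5 counts of either gene, too few for a ratio to be read.

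Gabra6, Cbln3 and Fat2, granule cell genes that the cerebrum hardly holds, were high in Tol 2 and WT 4 but not in Tol 3. Not all of the 9 granule cell genes did so. Cbln1 was highest in WT 1, and Neurod1 was higher in Tol 1 and Tol 3 than in Tol 2. For Gabra6, Cbln3 and Fat2, which were picked with their values in view, the level in cerebrum Tol 2 was between 0.831% and 1.08% of the mean of the WT cerebella, and for Pcp2 and Ppp1r17 it was 2.24% and 2.34%. In WT 4 all 5 genes lay between 0.863% and 1.24%. In Tol 3, Pcp2 and Ppp1r17 lay at 0.523% and 0.568%, while Gabra6, Cbln3 and Fat2 lay at 0.121%, 0.290% and 0.191%, near the 0.191%, 0.279% and 0.231% of Tol 4. In the other 5 cerebra, Tol 4 included, none of the 5 genes exceeded 0.279%. Whether cerebellar tissue contributed to these libraries was not tested. Without the 3 cerebra, 0 of the 5 tested members and 0 of 15837 genes passed, with log2 fold changes between -0.11 for Slc1a6 and 0.36 for Calb1.

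**Figure D5:**
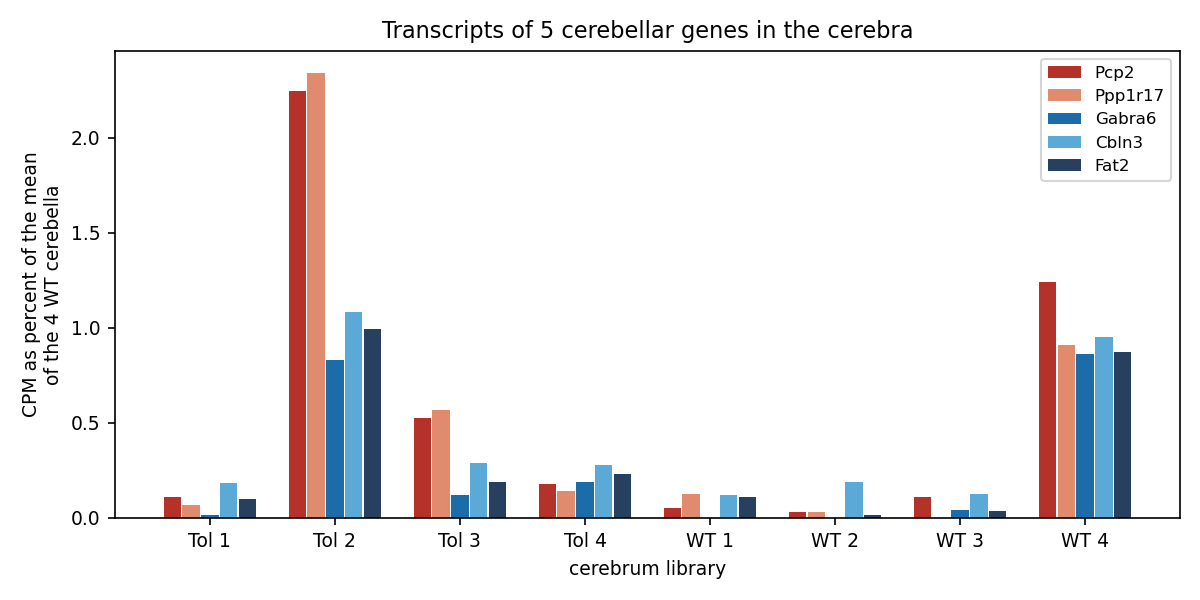
CPM of the Purkinje cell genes Pcp2 and Ppp1r17 and of the granule cell genes Gabra6, Cbln3 and Fat2 in each cerebrum, as a percent of the mean of the 4 WT cerebella. Bars reach 2.34% in Tol 2 and 1.24% in WT 4, and are at most 0.568% in Tol 3 and 0.279% in the other 5 cerebra.

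The difference between the Tol effects in cerebellum and in cerebrum was tested as an interaction term with edgeR. It passed for 0 of the 7 genes and for 0% of 17130 genes, with 1042 at an unadjusted p under 0.05 and 7 called by DESeq2. Fitted differences ran from -2.12 for Ppp1r17 to -0.15 for Slc1a6 on the log2 scale (edgeR adjusted p from 0.838 to 0.981). The count changed without cerebellum Tol 1. That leaves Tol 2, the library that stood apart, as the only Tol cerebellum, with its spread assumed to be that of the other groups, so what passed then describes this library and not the genotype. On that footing 6 of the 7 genes, all but Rora, and 1499 genes in all passed, with fitted differences from -5.66 for Ppp1r17 to -1.28 for Rora. Without Tol 2 instead, 0 passed.

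In thymus, 4 of the 7 genes passed the filter, and 0 of them passed the test between Tol and WT, where 0.0985% of 16248 genes did (16 genes, with 3965 at an unadjusted p under 0.05 and 1296 called by DESeq2). Rora, which in thymus is also transcribed by lymphoid cells, came closest. It stood at 14.3, 13.6, 14.6 and 13.99 CPM in thymi Tol 1 to Tol 4 and at 17.1, 18.7, 15.8 and 16.1 CPM in WT 1 to WT 4. The groups did not overlap, as in 12.5% of 14455 genes with a mean of at least 1 CPM in thymus. The log2 fold change was -0.26 (SE 0.07, 95% interval -0.42 to -0.09, edgeR adjusted p = 0.0956), and it lay between -0.29 and -0.21 in the 8 fits that each omit 1 thymus. DESeq2 gave an adjusted p of 0.0534 for it.

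Itpr1 stood at 156, 123, 131 and 112 CPM in thymi Tol 1 to Tol 4 and at 145, 142, 124 and 154 CPM in WT 1 to WT 4. The groups overlapped, with a log2 fold change of -0.11 (SE 0.10, edgeR adjusted p = 0.512). Calb1 with 10 to 31 counts per thymus and Car8 with 10 to 45 had log2 fold changes of 0.04 and -0.03 (edgeR adjusted p = 0.931 and 0.958). Pcp2 had 1 to 5 counts, Ppp1r17 1 to 7 and Slc1a6 0 to 5 in the 8 thymi, and were not tested.

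Genes whose pattern over the libraries was most like that of the 7 were ranked by Pearson's r of log2(CPM + 1) with the mean of the members, as a description over libraries that share organ and makeup. Over all 22 libraries and 18939 genes, these were Zic2 (r = 0.997), a transcription factor of granule cells, Trim67 (0.996), 6430571L13Rik (0.995), Zic5 (0.995) and Dpf3 (0.995). Over the 6 cerebella and 18503 genes, they were Cep76, Zfp385c, Zdhhc14, Stk17b and Pcsk6, with r from 0.999 to 0.9999. With 6 libraries, of which Tol 2 and WT 2 lie apart, such values rest on these 2. Cep76 stood at 154 ± 50.9 CPM (SD, n = 4) in WT cerebellum and 15.4 CPM in Tol 2.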

How the data were processed

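RNA from thymus, cerebrum and cerebellum was extracted with RNeasy and sequenced single-end from poly(A)-selected, stranded TruSeq libraries. Per the study's methods, the authors ran Salmon 0.14.1 against Ensembl cDNA of GRCm38 to which the Tol sequence was added, and the deposited values are estimated counts (expected counts) per gene, whole numbers without normalization, in 3 tables. How transcripts were summed to genes, and whether strand was used, is not given in the sources used here. The submitters' processing notes also name edgeR 3.9. The authors' columns of fold changes and p-values were not used, and 0 columns of the tables were left out.

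Symbols came from GENCODE vM21, which held 34465 of the 34585 rows, and 1 of 133 listed symbols (Septin4) was found under its older symbol only. Counts were tested in R 4.3.3 with edgeR 4.0.16 (TMM, filterByExpr, quasi-likelihood F test, Benjamini-Hochberg adjustment over all genes tested), per organ for Tol against WT, over the 12 WT libraries for organs, and with an interaction term over cerebellum and cerebrum. The test was checked on simulated data. CPM used TMM factors over the 22 libraries, and levels were averaged as log2(CPM + 1). CPM is relative to the rest of its library, and TMM assumes that most genes do not change. Fewer than 3 counts in a library were taken as not detectable, a limit that covers counting error only.

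Replicates within a group differed beyond sampling noise (between 5.28 and 223.5 in chi-square divided by its degrees of freedom) and were counted as 1 sample each. Nothing states which organs came from the same mouse, and p-values measure the spread between these libraries only. Members and gene lists were chosen with earlier results of these data known. Genes named beside the 7 members are family relatives, those of each list with the lowest p or the largest difference of cerebellum Tol 2, and the 5 most alike. Others named (Gabra6 and Fat2 in cerebrum, Gnaq, Pcp4, Foxp2, Itpka, Gad1, Ttr and Slc6a5) were picked with their values in view, and some genes of the lists are not reported here. The results were recomputed with DESeq2 1.42.0, with its size factors in place of TMM, without a filter, with at least 10 counts in every library, with the replicate number as a block, with all 22 libraries fitted together, with 1 library omitted at a time, with library totals without TMM, and with a pseudocount of 0.1.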

Additional observations from a re-analysis of the deposited data

Results flagged for a closer look

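A gap test for a single sample far from the rest of its group (the gap to the nearest sample over the range of the group, in groups of 4) picked out 7 of the 35 combinations of a gene with a group, where chance gives about 1 in 20, or 1.75. Of these, 3 were in cerebellum WT 2: Calb1 at 470.6 CPM, with the nearest WT cerebellum at 1060 CPM, Car8 at 815 CPM (nearest 1948) and Ppp1r17 at 105 CPM (nearest 244). Another 2 were in cerebrum WT 4, with Pcp2 at 2.70 CPM (nearest 0.240) and Ppp1r17 at 1.98 CPM (nearest 0.271). Car8 in cerebrum Tol 2 stood at 63.5 CPM (nearest 23.4). Slc1a6 in thymus WT 3 stood at 0.0517 CPM, which is 1 count, where the other 3 WT thymi had 0. Cerebellum Tol 2 was in a group of 2 libraries, to which the gap test does not apply. The 7 genes were measured in the same libraries and vary together, so the 35 combinations are not independent. The 1.75 holds for independent combinations, and 7 against 1.75 does not measure an excess.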

How the results depend on the processing

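Over the alternatives, 198 summary values and 529 single-gene values kept their direction and their side of the threshold, 30 summary values moved, 6 single-gene values came to pass the test (all in the interaction without cerebellum Tol 1) and 43 reversed, all of them for differences that did not pass the test. The cause of a change was not tested. In cerebellum, 0 of 7 members passed under each alternative, with 9 genes in all called by DESeq2 and 0 to 2 with each library left out. Log2 fold changes without single libraries ranged from -4.32 to 0.39 for Pcp2, -3.32 to 0.43 for Calb1, -4.02 to 0.38 for Car8, -3.11 to 0.32 for Itpr1, -1.02 to 0.44 for Rora, -4.08 to 0.36 for Ppp1r17 and -2.34 to 0.62 for Slc1a6, with the lowest values without Tol 1 and the highest without Tol 2. Leaving out Tol 2 and WT 2, and then also WT 1, was chosen after seeing the data and gave 0.18 and 0.12 for Pcp2, 0.21 and 0.18 for Calb1, 0.15 and 0.13 for Car8, 0.092 and 0.050 for Itpr1, 0.27 and 0.28 for Rora, 0.13 and 0.12 for Ppp1r17, and 0.39 and 0.29 for Slc1a6. In cerebrum, DESeq2 called 187 genes, the fit of all 22 libraries 25, and fits without single libraries 0 to 7. Log2 fold changes ranged from -0.042 (without Tol 2) to 0.80 for Car8, -0.0025 to 0.23 for Itpr1 and -0.14 to 0.13 for Slc1a6. In thymus, 16 genes passed, against 1296 by DESeq2, 130 without a filter, 85 with at least 10 counts in every library, 29 in the fit of all 22 libraries, and 0 to 2978 without single libraries (2978 without Tol 1). Ranges were -0.12 to 0.18 for Calb1 and -0.25 to 0.12 for Car8. For the interaction, DESeq2 called 7 genes, and fits without single libraries called 0 to 6 members and 0 to 1499 genes, both highest without cerebellum Tol 1. Ranges were -3.50 to 0.27 for Calb1, -3.20 to 0.25 for Itpr1, -1.28 to 0.20 for Rora and -2.31 to 0.67 for Slc1a6, and without cerebellum Tol 2 and WT 2, also chosen after seeing the data, 0.047, 0.027, 0.034 and 0.44. Between organs, 7 of 7 members passed under each alternative that tested them all. With at least 10 counts in every library, 4 could be tested and 4 passed. The mean log2(CPM + 1) of the members, 4.67 in WT cerebrum, was 4.07 with a pseudocount of 0.1. In WT and Tol thymus, it moved from 1.93 and 1.92 to 0.51 and 0.64 with that pseudocount and to 2.04 and 2.03 with library totals.

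With the replicate number as a block, no member changed its call. In thymus, 5 genes passed and Car8 turned to 0.023. Whether equal numbers pair samples is not stated, and same-numbered Tol and WT libraries deviated from their group means with correlations from -0.382 to 0.67, so the numbers were not taken as pairs. Depth limits Pcp2, Ppp1r17 and Slc1a6 in thymus and Pcp2 and Ppp1r17 in cerebrum, and 2 Tol cerebella limit the comparison in cerebellum.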
